A study of Mus musculus with 8 samples.

Results

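The proteasome is the barrel-shaped protease that degrades ubiquitin-tagged proteins. Its core particle holds stacked rings of alpha and beta subunits, the active sites lie on 3 of the beta subunits, and a regulatory particle with an ATPase ring and a lid unfolds substrates and feeds them into the core. In mouse testis the germ cells make Psma8, an alpha subunit that takes the place of Psma7 and is required for male meiosis, and Psme4 (PA200) caps core particles and is known for the degradation of acetylated histones in spermatids. Cells exposed to interferon exchange the standard active subunits Psmb6, Psmb7 and Psmb5 for Psmb9, Psmb10 and Psmb8.

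The transcripts of these subunits were measured by RNA sequencing in 8 libraries of adult mouse testis, of which 4 carry the genotype label Ak9-/- and the title knockout, and 4 are wild type. Ak9 encodes an adenylate kinase, and the study set knockout testis against wild-type testis. The labels give no strain, no allele and no age beyond adult, and do not say whether a library came from 1 animal, so the p-values measure the spread between libraries. Gene symbols beginning with Psma, Psmb, Psmc, Psmd, Psme or Psmf and a number matched 50 genes. After 4 pseudogenes and Psmc3ip, a meiotic recombination factor with a similar name, were left out, 45 members remained of 56748 gene identifiers counted. Of these, 44 passed the filter on low counts, together with 21805 genes in all, and Psmb11 did not.

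Total counts ran from 18062780 to 24415587 per library. Ak9 itself had 69.3, 116, 101 and 40.6 CPM (a share of the library total, scaled between libraries by TMM) in the labelled knockout libraries 1 to 4, against 108, 115, 122 and 107 CPM in wild type. Labelled knockout libraries 2 and 3 lay among or near the wild-type values. As the allele is not given, this level cannot tell whether a library carries its labelled genotype. Every direction given is between the labelled groups. The germ cell markers of testis were present: Prm1, a sperm protamine, had 1494 to 4020 CPM in the labelled knockouts and 2744 to 3225 CPM in wild type. Labelled knockout library 3 stood apart with a mean difference from wild type of -0.84 on the log2 scale over 7 elongating spermatid markers, against 0.12 to 0.49 in the other labelled knockouts, and 0.51 over 7 Sertoli cell markers. Crisp1, a gene of the epididymis, had 0, 0.482, 185 and 24.4 CPM in the labelled knockouts and at most 0.534 CPM in wild type. In bulk tissue, fewer cells of a type and less RNA per cell cannot be told apart.

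No proteasome gene passed the test between the labelled groups. In the edgeR quasi-likelihood test over all 21805 genes, 0 of 44 members were called higher, against 0.0183% of all genes, and 0 were called lower, against 0.0% of all genes, at an adjusted p under 0.05. At an unadjusted p under 0.05 the count of members was also 0 in each direction, against 1.25% of all genes higher and 1.79% lower. DESeq2 called 0 members, against 0.0771% of genes higher and 0.0623% lower. With limma-voom 0 members were called, against 4 genes higher and 0 lower of the 21805 tested. The members' log2 fold changes (labelled knockout over wild type) lay between -0.52 and 0.29, with a median of 0.04 beside 0.01 for all genes tested; 28 were above 0 and 16 below. Standard errors ran from 0.08 to 0.49 with a median of 0.11.

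By subcomplex, the ATPase ring of the regulatory particle (6 Psmc genes) had a median log2 fold change of 0.06, the 11 other regulatory particle subunits 0.08, the 7 general alpha subunits -0.01, the 4 beta subunits without an active site -0.03 and the 3 standard active subunits 0.04. The 3 chaperones that assemble the ATPase ring (Psmd5, Psmd9 and Psmd10) had a median of 0.04. The 5 activators had -0.15 and the 3 interferon-inducible active subunits -0.36. Summed per-length levels of all 45 members were 5617 ± 244 TPM (transcripts per unit of length, with the same total in every library) in the labelled knockouts and 5540 ± 53.6 TPM in wild type (SD, n = 4 each). TPM was computed from the counts and gene lengths, so it allows levels of different genes to be set side by side, and it carries no TMM scaling.

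On the CPM scale the groups did not overlap for 1 member, Psmd11, a lid subunit. Of all genes tested, 0.981% lay wholly above wild type on that scale and 1.32% wholly below. Psmd11 had 91.6, 89.9, 89.5 and 92.1 CPM in the labelled knockouts and 85.3, 82.9, 82.8 and 84.9 CPM in wild type. All 4 labelled knockouts were higher, by a log2 fold change of 0.11 ± 0.08 (SE; edgeR adjusted p = 1.00). In TPM the groups of Psmd11 overlapped, with 36.6, 39.2, 48.8 and 36.4 in the labelled knockouts and 37.6, 39.3, 37.8 and 38.2 in wild type. Its neighbour in the lid, Psmd12, had 101, 93.5, 84.1 and 89.6 CPM in the labelled knockouts and 85.2, 81.9, 85.1 and 87.3 CPM in wild type (0.12 ± 0.09, SE; edgeR adjusted p = 1.00). There labelled knockout library 3 fell among the wild-type values and the other 3 lay above them.

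**Figure D1:**
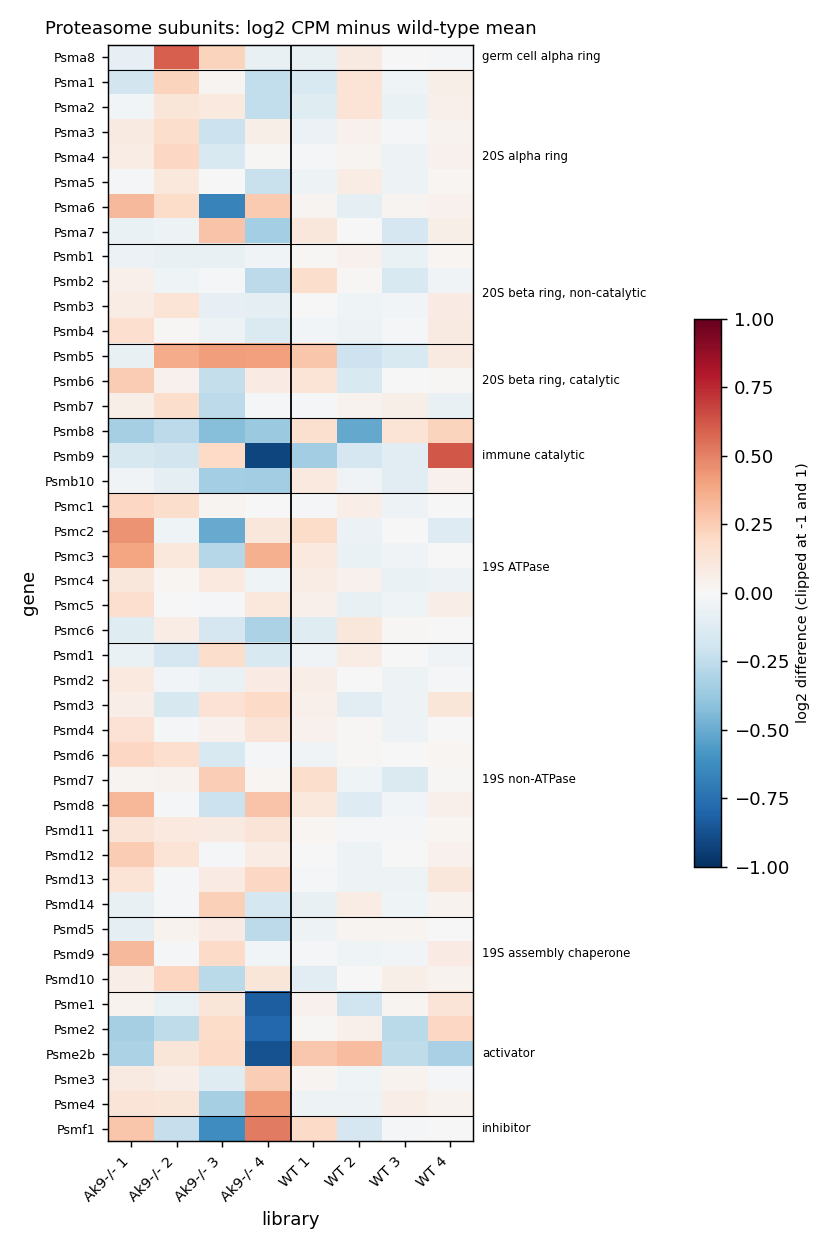
Each cell shows log2(CPM + 0.5) of 1 proteasome gene (down the page, grouped by place in the complex) in 1 library (across), minus the mean of the 4 wild-type libraries; colours are clipped at -1 and 1. The labelled knockout columns on the left carry stronger colours in both directions than the wild-type columns, with Psmb9, Psme1, Psme2 and Psme2b low in labelled knockout library 4, and Psma6 and Psmf1 low in library 3.

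The labelled knockout libraries lay farther apart from each other than the wild-type libraries did. The members' median SD of log2 CPM was 0.16 over the 4 labelled knockouts and 0.07 over the 4 wild-type libraries, beside 0.30 and 0.13 for all genes tested. Among genes with a mean of at least 20 CPM, the median range was 0.36 in labelled knockouts and 0.14 in wild type for 37 members, beside 0.51 and 0.19 for all such genes. These spreads are a description and were not tested. Labelled knockout libraries 1 to 4 had 23, 18, 11 and 16 of the 44 members above every wild-type library, beside 32.5%, 26.3%, 33.5% and 34.0% of all genes tested. They had 7, 4, 18 and 16 members below every wild-type library, beside 32.0%, 26.4%, 36.2% and 33.9% of all genes.

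Psma8 was among the members with the highest transcript levels per length, and it exceeded Psma7 in all 8 libraries. Psma8, the germ cell alpha subunit on chromosome 18, had 160, 256, 198 and 161 CPM in the labelled knockouts and 161, 180, 170 and 167 CPM in wild type. Labelled knockout libraries 2 and 3 were above all wild-type libraries, and the other 2 stood at the lower edge of the wild-type range. The log2 fold change was 0.19 ± 0.15 (SE; edgeR adjusted p = 1.00), and 0.02 without labelled knockout library 2. Psma7, the general subunit whose place Psma8 takes, had 42.8, 43.2, 54.7 and 35.2 CPM in the labelled knockouts and 48.4, 44.6, 39.9 and 46.6 CPM in wild type (-0.03 ± 0.13, SE; edgeR adjusted p = 1.00). Its highest and its lowest value both came from labelled knockouts.

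On the per-length scale Psma8 had 222 ± 68.0 TPM in the labelled knockouts and 198 ± 15.7 TPM in wild type, where it ranked 8 of 45; Psma7 had 41.4 ± 14.3 and 42.4 ± 3.06 TPM and ranked 30 (SD, n = 4 each). The nearest neighbours of Psma8 in wild type were Psmc5 with 206 ± 5.21 TPM and Psmb4 with 180 ± 7.65 TPM, within or near its own spread. Psma8 exceeded Psma7 by 4.61, 7.29, 4.45 and 5.62 times in the labelled knockouts and by 4.09, 4.98, 5.25 and 4.41 times in wild type. Psma8 thus made up 84.2 ± 2.89% of the summed TPM of both genes in the labelled knockouts and 82.3 ± 1.66% in wild type (SD, n = 4 each). With the length of the longest transcript in place of all exons, the mean ratio was 3.52 in labelled knockouts and 3.00 in wild type. Within libraries, the log2 ratio of Psma8 to Psma7 counts differed by 0.21 ± 0.18 (SE; two-sided exact permutation test p = 0.314, adjusted 0.55 over 7 ratios). Without labelled knockout library 2 that difference was 0.063. The smallest p that 4 against 4 libraries can give in this test is 0.0286.

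**Figure D2:**
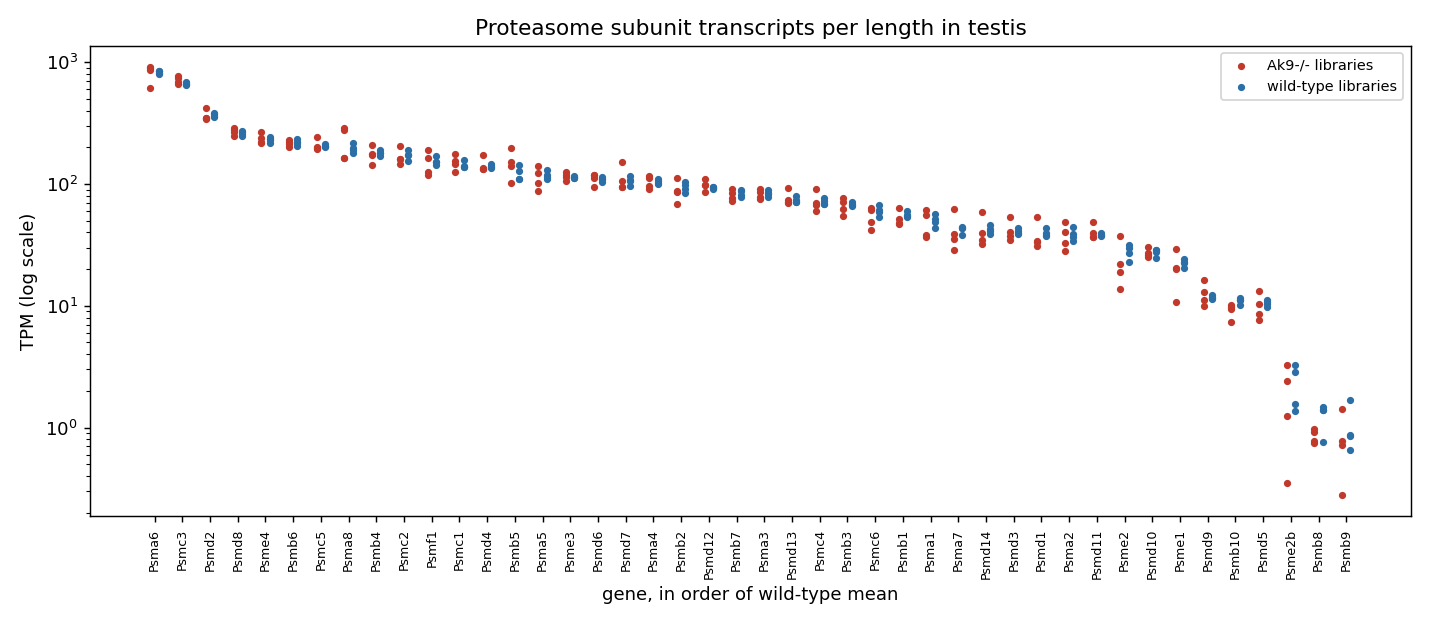
Every tested proteasome gene is placed on the horizontal axis in order of its wild-type mean, and the vertical axis gives TPM on a log scale; each point is 1 library, with labelled Ak9-/- libraries in red to the left of wild-type libraries in blue. Psma6 and Psmc3 stand highest, Psma8 lies in the upper part near 200 TPM, and Psme2b, Psmb8 and Psmb9 lie lowest.

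None of the other alpha subunits passed the test. Psma1 to Psma6 had log2 fold changes between -0.04 and 0.08, with standard errors of 0.10 to 0.19. Psma6 had the highest mean per-length level of all members over exon lengths, with 823 ± 137 TPM in the labelled knockouts and 826 ± 19.3 TPM in wild type (SD, n = 4 each). With longest-transcript lengths the ATPase Psmc3 was higher in the labelled knockouts, at 828 TPM beside 785 TPM for Psma6, and in labelled knockout library 3 it was higher over exon lengths too, at 659 TPM beside 619.97 TPM. Psma6 counts were 440, 399, 220 and 421 CPM in the labelled knockouts and 357, 328, 357 and 362 CPM in wild type. Labelled knockout library 3 was below every wild-type library and the other 3 were above. Without library 3 the log2 fold change of Psma6 was 0.25 ± 0.07 (SE; edgeR adjusted p = 0.120), the smallest adjusted p of any member under any setting tried.

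Of the 3 standard active subunits, Psmb5, which carries the chymotrypsin-like activity, had the largest positive log2 fold change of all members. Psmb5 had 35.8, 49.1, 50.7 and 50.5 CPM in the labelled knockouts and 45.9, 32.7, 34.0 and 40.2 CPM in wild type. Labelled knockout libraries 2 to 4 lay above every wild-type library, and library 1 lay inside the wild-type range (0.29 ± 0.15, SE; edgeR adjusted p = 1.00). A second gene bears on these counts. Gm3375, annotated as a processed pseudogene on another chromosome, is a near-identical copy of the coding part of the Psmb5 transcript. Reads can be shared or moved between such copies. Psmb5 lies at chr14:54614119-54618022 on the minus strand and Gm3375 at chr7:3181093-3181888 on the plus strand (GRCm38, GENCODE M21). Of the 899 bases of the Psmb5 transcript, 795 are aligned, and the 2 genes differ at 8 of these, an identity of 98.99%. The aligned bases hold the whole 792-base coding part, where all 8 differences lie. The longest stretch without a difference is 194 bases. The rest of the Psmb5 transcript has no match in the copy. The window of 120 bases with the most differences, coding positions 268 to 387 of Psmb5, shows how few coding bases can assign a read to either gene. Capitals mark the 3 bases that differ.

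Psmb5: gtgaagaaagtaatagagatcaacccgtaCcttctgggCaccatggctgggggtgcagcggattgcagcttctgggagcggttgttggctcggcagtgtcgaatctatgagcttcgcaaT
Gm3375: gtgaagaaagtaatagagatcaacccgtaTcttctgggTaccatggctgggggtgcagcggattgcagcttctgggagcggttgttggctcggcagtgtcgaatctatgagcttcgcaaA

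Gm3375 had 510, 5, 4 and 6 counts in labelled knockout libraries 1 to 4 and 257, 229, 230 and 206 counts in wild type. Labelled knockout libraries 2 to 4 were near 0, library 1 was above every wild-type library, and wild type lay between. As CPM these were 23.0, 0.241, 0.197 and 0.350 in the labelled knockouts and 13.7, 10.3, 9.30 and 10.3 in wild type. The copy held 39.1%, 0.489%, 0.388% and 0.688% of the reads of both genes in the labelled knockouts, and 23.0%, 23.9%, 21.5% and 20.4% in wild type. Psmb5 was lowest among labelled knockouts in the library where the copy was highest. Among wild-type libraries both were highest in library 1, at 45.9 CPM for Psmb5 and 13.7 CPM for the copy. Summed over both genes, the values were 58.8, 49.4, 50.9 and 50.8 CPM in the labelled knockouts and 59.6, 43.0, 43.3 and 50.5 CPM in wild type. The groups overlapped, and the log2 fold change was 0.10 ± 0.12 (SE) in the edgeR fit with the copy's reads added, chosen after seeing the data, against 0.29 for Psmb5 alone. Whether reads moved between the 2 genes was not tested.

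**Figure D3:**
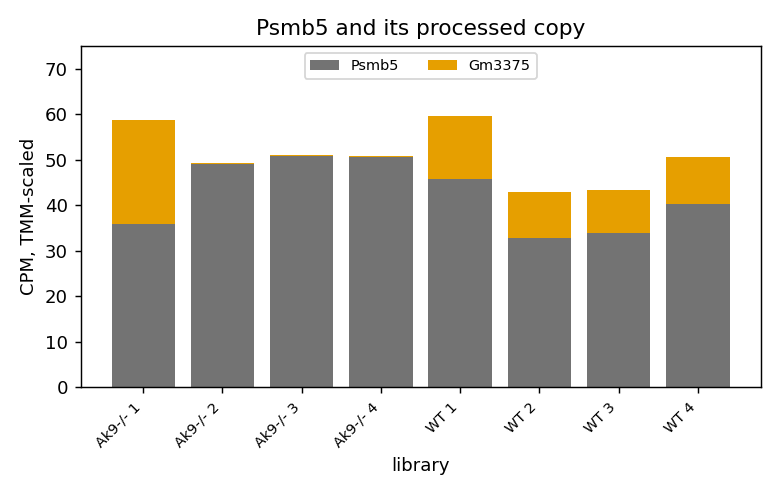
Stacked bars give the CPM of Psmb5 (grey) and of its processed copy Gm3375 (orange) in each library, labelled Ak9-/- on the left and wild type on the right. The orange part is 23.0 CPM in labelled knockout library 1, at most 0.350 CPM in libraries 2 to 4 and 9.30 to 13.7 CPM in wild type, while the full bars overlap between groups.

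Psmb6, with the caspase-like activity, had 168, 145, 119 and 149 CPM in the labelled knockouts and 155, 126, 141 and 141 CPM in wild type (0.04 ± 0.12, SE; edgeR adjusted p = 1.00). Psmb7, with the trypsin-like activity, had 103, 112, 82.5 and 97.7 CPM in the labelled knockouts and 98.1, 101, 103 and 93.8 CPM in wild type (-0.0037 ± 0.11, SE; edgeR adjusted p = 1.00). In both genes labelled knockout library 3 was the lowest library and the groups overlapped. Psmb1 to Psmb4, the beta subunits without an active site, had log2 fold changes between -0.07 and 0.01.

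The interferon-inducible subunits were scarce in both groups. Psmb8 had 23, 23, 19 and 17 counts in the labelled knockouts and 31, 19, 40 and 35 counts in wild type. Scaled, these were 1.04, 1.11, 0.937 and 0.991 CPM in the labelled knockouts and 1.66, 0.853, 1.62 and 1.75 CPM in wild type. Labelled knockouts were closely grouped and lay below 3 of the 4 wild-type libraries but above library 2, so the groups overlapped. Its log2 fold change of -0.52 ± 0.28 (SE; edgeR adjusted p = 1.00) was the most negative of all members. Psmb9 had 1.04, 1.01, 1.48 and 0.408 CPM in the labelled knockouts, from 23, 21, 30 and 7 counts, and 0.855, 1.03, 1.09 and 2.15 CPM in wild type, from 16, 23, 27 and 43 counts. Its extremes were labelled knockout library 4 and wild-type library 4 (-0.36 ± 0.40, SE; edgeR adjusted p = 1.00, and -0.01 without wild-type library 4). Exact 95% Poisson limits on 7 counts are 2.81 and 14.4, and those on 43 counts are 31.1 and 57.9, for counting error only.

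Psmb10 was the most abundant of the 3, with 6.27, 5.98, 4.98 and 4.96 CPM in the labelled knockouts and 6.95, 6.29, 5.95 and 6.65 CPM in wild type. Only labelled knockout libraries 1 and 2 reached the wild-type range (-0.22 ± 0.16, SE; edgeR adjusted p = 1.00). Psmb11, the active subunit of the thymic cortex, had 1, 4, 0 and 1 counts in the labelled knockouts and 6, 3, 6 and 1 counts in wild type, and was not tested. Where a library holds no count of a gene, the one-sided 95% limit is 3 counts, or 0.123 to 0.166 CPM across these libraries.

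Each inducible subunit was a small share of the summed TPM of its pair. Psmb8 made up 0.592 ± 0.123% of Psmb8 and Psmb5 in the labelled knockouts and 1.01 ± 0.246% in wild type (SD, n = 4 each). Psmb9 made up 0.361 ± 0.204% of Psmb9 and Psmb6 in the labelled knockouts and 0.466 ± 0.212% in wild type (SD, n = 4 each). For Psmb10 and Psmb7 the share was 10.2 ± 0.816% in the labelled knockouts and 11.6 ± 1.03% in wild type (SD, n = 4 each). The log2 count ratio of Psmb8 to Psmb5 differed by -0.75 ± 0.23 (SE; two-sided exact permutation test p = 0.0571, adjusted 0.40 over 7 ratios). With the reads of Gm3375 added to Psmb5 the difference was -0.57, at the same unadjusted exact p. The ratio of Psmb9 to Psmb6 differed by -0.44 ± 0.53 (SE; exact permutation p = 0.429, adjusted 0.60; -0.07 without labelled knockout library 4) and that of Psmb10 to Psmb7 by -0.21 ± 0.10 (SE; exact permutation p = 0.114, adjusted 0.40). No ratio passed after adjustment. With this number of libraries, a ratio whose groups separated fully would miss the threshold unless most of the 7 ratios separated too. The adjusted values thus say little of any single ratio.

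**Figure D4:**
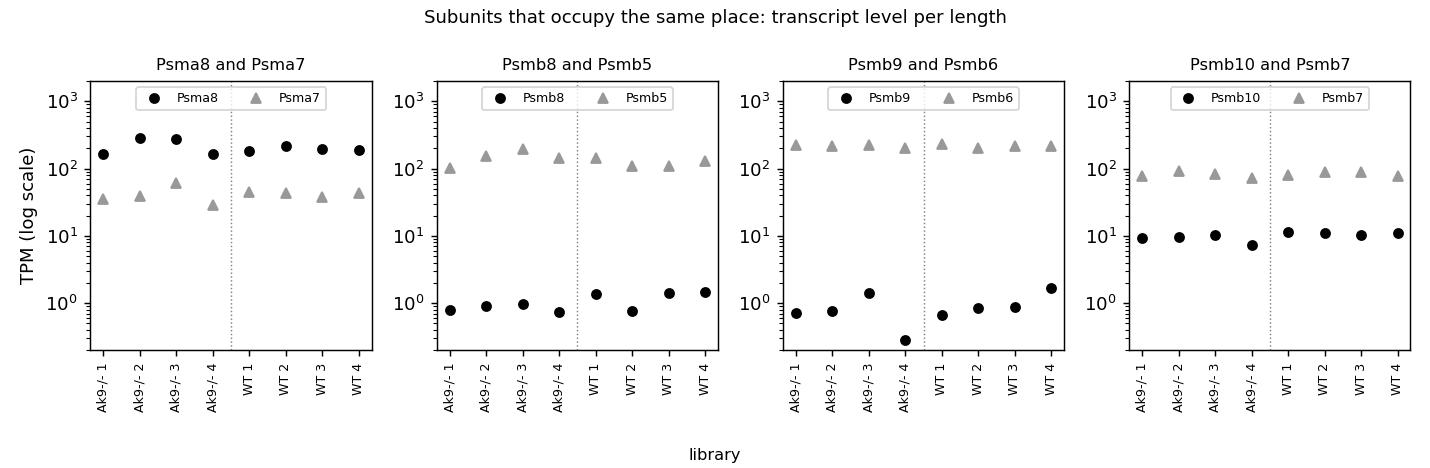
The 4 panels set a subunit (black circles) beside the standard subunit whose place it takes (grey triangles) in each library, labelled Ak9-/- left of wild type, with TPM on a log scale. Psma8 lies above Psma7 in all 8 libraries, whereas Psmb8, Psmb9 and Psmb10 lie below Psmb5, Psmb6 and Psmb7 in all 8.

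Genes of blood cells, antigen processing and the interferon response were set beside these subunits. Macrophage markers were detected, for example Csf1r at 10.01 to 20.5 CPM in the labelled knockouts and 15.8 to 18.0 CPM in wild type. Of 7 lymphocyte markers, 3 passed the count filter, and Cd8a and Ncr1 had at most 0.117 CPM in any library. The part of these cells in the inducible subunits was not tested. Tap1, the peptide transporter gene beside Psmb9, had 1.44, 2.41, 3.31 and 0.6997 CPM in the labelled knockouts and 1.87, 1.48, 2.63 and 2.80 CPM in wild type. Tap2 had 1.67, 1.83, 3.36 and 0.408 CPM in the labelled knockouts and 2.46, 2.56, 2.75 and 3.10 CPM in wild type. As with Psmb9, the lowest value of both was in labelled knockout library 4. Over 10 antigen processing genes the median log2 fold change was -0.15, with 2 above 0, and none was called; H2-K1, a class I heavy chain, had the smallest p (-0.47 ± 0.17, SE; edgeR adjusted p = 1.00). Among 11 interferon target genes tested the median was 0.05. Stat2, the interferon signalling factor, had 15.01, 17.1, 19.1 and 16.4 CPM in the labelled knockouts and 10.2, 7.99, 10.1 and 9.85 CPM in wild type. All labelled knockouts were higher (0.83 ± 0.14, SE; edgeR adjusted p = 0.137, DESeq2 adjusted p = 2.91e-05), so its call depended on the tool.

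Among activators, which open the gate of the core particle, Psme4 was the most abundant in both groups. Psme4 had 728, 722, 528 and 893 CPM in the labelled knockouts and 642, 643, 696 and 682 CPM in wild type. Labelled knockout library 3 lay below all wild-type libraries and the other 3 lay above them (0.11 ± 0.15, SE; edgeR adjusted p = 1.00). Psme3, the nuclear PA28 gamma, had 123, 121, 106 and 137 CPM in the labelled knockouts and 118, 112, 119 and 115 CPM in wild type, with the same ordering (0.07 ± 0.10, SE; edgeR adjusted p = 1.00).

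Psme1 and Psme2, the interferon-inducible PA28 alpha and beta chains that assemble together, were lower in level. Psme1 had 17.4, 16.3, 18.6 and 9.39 CPM in the labelled knockouts and 17.6, 14.8, 17.4 and 18.7 CPM in wild type (-0.15 ± 0.19, SE; edgeR adjusted p = 1.00). Psme2 had 13.2, 13.9, 19.1 and 9.50 CPM in the labelled knockouts and 16.9, 17.4, 13.8 and 19.4 CPM in wild type (-0.27 ± 0.20, SE; edgeR adjusted p = 1.00). Both were lowest in labelled knockout library 4 and the groups overlapped. Psme2b, a near-identical copy of Psme2 (99.4% over the matched bases), had 9, 15, 16 and 2 counts in the labelled knockouts and 16, 20, 11 and 8 counts in wild type; the division of reads between Psme2 and Psme2b is uncertain.

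Per length, Psme4 exceeded Psme1 by 13.8 ± 7.73 times in the labelled knockouts and 10.3 ± 0.870 times in wild type (SD, n = 4 each). Over Psme2 the factor was 12.02 ± 5.78 in the labelled knockouts and 8.44 ± 1.46 in wild type, and over Psme3 it was 2.05 ± 0.226 and 2.02 ± 0.0766. The labelled knockout factors over Psme1 ran from 7.50 in library 3 to 25.1 in library 4, on both sides of the wild-type range. The log2 count ratios of Psme4 to Psme1, Psme2 and Psme3 differed by 0.28 ± 0.37, 0.39 ± 0.38 and 0.02 ± 0.09 (SE; two-sided exact permutation p = 0.629, 0.314 and 0.80, adjusted 0.733, 0.55 and 0.80). Without labelled knockout library 4 the difference was -0.06 for Psme1 and 0.11 for Psme2, and without library 3 it was 0.52 and 0.70.

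Psmf1 (PI31), which inhibits the core particle in vitro, had one of the widest spreads. It had 413, 291, 221 and 490 CPM in the labelled knockouts and 390, 303, 336 and 342 CPM in wild type. Labelled knockout libraries 1 and 4 lay above, and libraries 2 and 3 below, every wild-type library; its log2 range was 1.14 over the labelled knockouts and 0.36 over wild type (0.05 ± 0.21, SE; edgeR adjusted p = 1.00).

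The 7 members with a mean of at least 200 CPM over all libraries, a level chosen after their values were seen, lay on the same side of wild type in labelled knockout libraries 1 and 3. They are Psma6, the ATPases Psmc2 and Psmc3, the scaffold Psmd2, the lid subunit Psmd8, Psme4 and Psmf1. In labelled knockout library 1, 7 of the 7 were above every wild-type library, in library 2 there were 3, in library 3 there were 0, and in library 4 there were 6. In library 3, 7 of the 7 were below every wild-type library. Of all genes tested, 32.5%, 26.3%, 33.5% and 34.0% lay above every wild-type library in labelled knockout libraries 1 to 4, and 36.2% lay below in library 3. The 30 members of 20 to 200 CPM leaned the same way in library 1 but not in library 3. Their median differences in libraries 1 to 4 were 0.07, 0.05, 0.03 and -0.02 on the log2 scale. Above every wild-type library were 15, 14, 11 and 9 of the 30. Below were 6, 3, 9 and 11, beside 32.0%, 26.4%, 36.2% and 33.9% of all genes tested. Psmc3, the most abundant ATPase, had 792, 647, 494 and 771 CPM in the labelled knockouts and 643, 573, 587 and 604 CPM in wild type. Psmc2 had 406, 288, 209 and 322 CPM in the labelled knockouts and 337, 286, 298 and 272 CPM in wild type. Psmd8 had 346, 273, 237 and 336 CPM in the labelled knockouts and 297, 251, 270 and 284 CPM in wild type. Psmd2 varied least, with 549, 504, 491 and 543 CPM in the labelled knockouts and 537, 514, 496 and 509 CPM in wild type.

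Their median difference from the wild-type mean was 0.33, -0.01, -0.33 and 0.29 on the log2 scale in labelled knockout libraries 1 to 4. The means over spermatid markers had the same sign as these medians in libraries 1, 3 and 4. The mean over 7 elongating spermatid markers was 0.44, 0.12, -0.84 and 0.49 in labelled knockout libraries 1 to 4, and that over 7 round spermatid markers was 0.38, 0.22, -0.64 and 0.29. The mean over 7 Sertoli cell markers was -0.11, 0.08, 0.51 and -0.39, opposite in sign to the spermatid means in libraries 1, 3 and 4 but not in library 2. The part of cell composition in the members' values was not tested. Of the 7 tested members under 20 CPM, 5 lay below every wild-type library in labelled knockout library 4, beside 33.9% of all genes tested, at every level. The median difference of the 7 was -0.79. The 5 were Psmb9, Psmb10, Psme1, Psme2 and Psme2b, of which Psme2 and Psme2b are near-identical and may share reads. Psmb9 had 7 counts and Psme2b 2 counts in labelled knockout library 4. In that library the mean over 7 Leydig cell markers was -1.14, that over 6 macrophage markers -0.22 and that over 3 tested lymphocyte markers 0.11. The Leydig means in labelled knockout libraries 1 to 3 were -0.30, -0.47 and -0.05. The part of these cell types in the members' values was not tested.

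**Figure D5:**
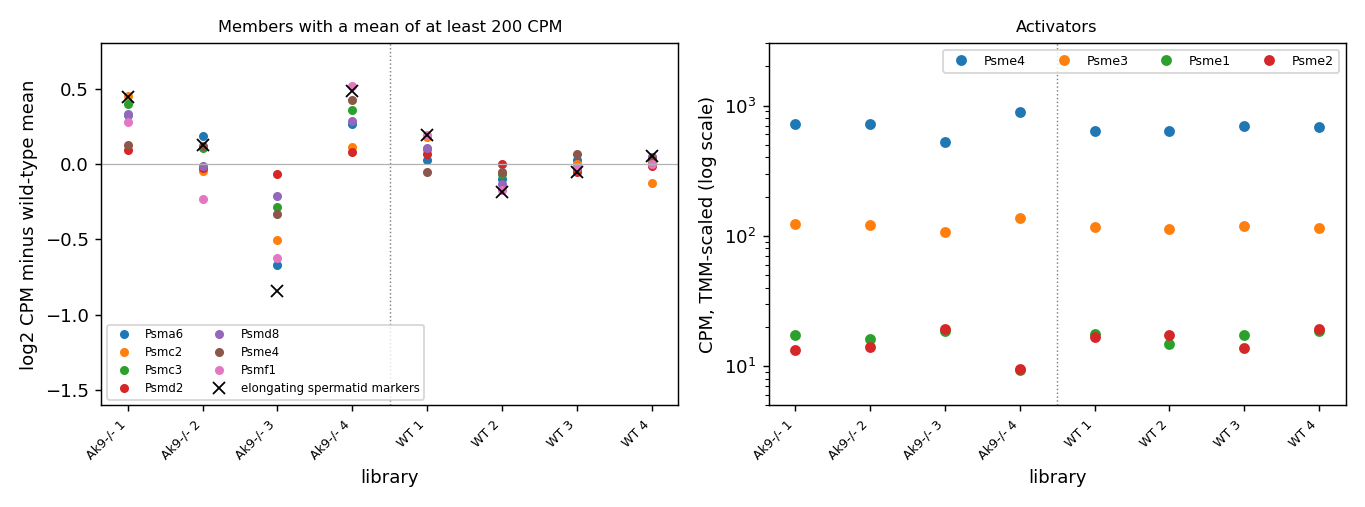
The left panel gives log2(CPM + 0.5) minus the wild-type mean for the 7 members of at least 200 CPM (dots) and the mean over 7 elongating spermatid markers (crosses) in each library, labelled Ak9-/- left of wild type. The dots lie above 0 in labelled knockout libraries 1 and 4 and below 0 in library 3; the right panel gives CPM on a log scale for 4 activators, with Psme4 highest in all 8 libraries and Psme1 and Psme2 dipping in labelled knockout library 4.

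None of the remaining regulatory particle genes passed the test. Psmc1, Psmc4, Psmc5 and Psmc6 had log2 fold changes between -0.13 and 0.11. The ubiquitin receptor Psmd4 had 0.08 ± 0.09 and Psmd14, the lid enzyme that removes ubiquitin chains, 0.0018 ± 0.11 (SE). Psmd1, Psmd3, Psmd6, Psmd7 and Psmd13 lay between -0.05 and 0.10. Summed TPM of the 6 ATPases was 1371 ± 53.6 in the labelled knockouts and 1324 ± 28.0 in wild type, and that of the 11 other regulatory subunits was 1337 ± 146 and 1315 ± 24.6 (SD, n = 4 each).

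Genes that work with the proteasome were read from the same fit. None of 5 measured core assembly chaperones was called, with a median log2 fold change of -0.0026; Psmg2 had the smallest p (0.17 ± 0.11, SE; edgeR adjusted p = 1.00). None of 8 ubiquitin factors bound to the proteasome was called (median 0.07), and the deubiquitinase Uchl5 came nearest at 0.14 ± 0.09 (SE; edgeR adjusted p = 1.00). Of 9 shuttle factors, which carry ubiquitylated proteins to the proteasome, 0 were called (median 0.10). Among 6 genes for ubiquitin and its activating enzymes 0 were called (median 0.03); Ubb, a polyubiquitin gene, had 0.16 ± 0.13 (SE). Of 7 regulators of proteasome genes or import, 0 were called (median -0.07), and Akirin2, which human cells need to import proteasomes into the nucleus, had 0.18 ± 0.13 (SE). Nfe2l1, the transcription factor that raises proteasome genes when proteasomes are inhibited, had 86.0, 96.6, 118 and 93.4 CPM in the labelled knockouts and 106, 105, 102 and 100 CPM in wild type. Its values overlapped between groups (-0.07 ± 0.11, SE; edgeR adjusted p = 1.00).

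Several members share exon sequence with a neighbouring gene, and whether the counting used the strand is not given in the sources. In the GENCODE M21 annotation, 25.5% of the exon bases of Psmd9 lie in the noncoding gene Gm26745 and 14.7% of those of Psmb8 in the antisense gene Gm20496. For Psmb5 the share was 12.1%, in the microRNA gene Mir686 on the same strand. It was 11.8% for Psmb7 in Nek6, 10.1% for Psmd13 in Sirt3, 8.25% for Psmc3 in Slc39a13 and 5.79% for Psmb9 in Tap1. The other overlaps of members were smaller. Reads from the 2 genes of such a pair may not be told apart.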

How the data were processed

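Total RNA of adult testis was sequenced in 8 libraries, 4 labelled Ak9-/- and 4 wild type. The authors deposited raw counts per Ensembl gene for all libraries in 1 table. The submitters' processing notes name STAR, Trimmomatic, DESeq2 and featureCounts, and the build GRCm39 (mm39); versions, annotation and strand setting are not given in the sources. The labels' protocols name TRIzol extraction, DNase treatment and TruSeq libraries. Columns of no sample numbered 0. No pair of libraries agreed within sampling noise: the lowest chi-square per gene was 4.52.

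Symbols were matched for 52073 of 56748 identifiers with GENCODE M21 (GRCm38), which also gave exon lengths for TPM, overlaps and transcripts; it is not the build of the counts. Genes were kept by filterByExpr of edgeR (minimum count 10, minimum total 15), scaled by TMM and tested with the edgeR 4.0.16 quasi-likelihood test in R 4.3.3, without a block, and with Benjamini-Hochberg adjustment over all 21805 genes at 0.05. Ratios between members were tested as log2((count + 0.5)/(count + 0.5)) by two-sided exact permutation over libraries. Marker means use log2(CPM + 0.5) minus the wild-type mean. Near-identical copies (at least 95% identity over 80% of the length) were found with blastn 2.17.0. The fit was tested on simulated data.

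Alternatives were DESeq2 1.42.0, voom of limma 3.58.1, RLE size factors, a replicate block, no filter, a floor of 1 CPM on the mean, each library left out, a prior count of 5, longest-transcript lengths and, added after seeing the data, copies' reads added to parent genes. Full values are given for the pairs compared, the activators and the inhibitor, for the 3 members with the smallest p in each direction and the 2 with the widest range over labelled knockouts; Psma6, Psmc2, Psmc3, Psmd2 and Psmd8 were added after their values were seen. Of each pathway list the member with the smallest p is given, except for the shuttle factors, where it is not reported here, and Tap1, Tap2 and Nfe2l1 were added. The members and lists were chosen with earlier results of these data known. Intervals and limits cover counting error only.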

Additional observations from a re-analysis of the deposited data

Results flagged for a closer look

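In 102 groups of 4 libraries checked, 1 value stood far from the other 3 in 4 groups; chance alone flags about 1 in 20 groups. Psmb5 had 35.8 CPM in labelled knockout library 1, against 49.1 to 50.7 CPM in the other labelled knockouts. The copy Gm3375 held 39.1% of the reads of both genes in that library, and a link between the 2 was not tested. Psmd7, the lid partner of Psmd14, had 98.8 CPM in labelled knockout library 3, against 84.3 to 85.4 CPM in the others. Psma6 had 328 CPM in wild-type library 2, against 357 to 362 CPM in the other wild-type libraries. Psmb8 had 0.853 CPM in wild-type library 2, against 1.62 to 1.75 CPM in the others; without that library its log2 fold change was -0.71 ± 0.25 (SE; edgeR adjusted p = 1.00).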

How the results depend on the processing

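The count of proteasome genes called was 0 in each direction under every alternative run. The counts over all genes, 4 higher and 0 lower, were 16 and 10 with no filter and 26 and 21 with DESeq2. Leaving out 1 library at a time they ran from 3 to 23 higher and from 0 to 24 lower: 9 and 24 without labelled knockout library 1, 23 and 12 without library 3, and 14 and 19 without library 4. The cause was not tested.

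Same-numbered libraries of the 2 groups had correlations of their deviations of 0.0902, 0.0443, -0.0263 and 0.0305. Those of differently numbered libraries ran from -0.154 to 0.231. These values showed no pairing by number, and with 4 libraries in a group they cannot settle it. The fit with a replicate block called 4 genes higher and 0 lower. The log2 fold change of Psmf1 was -0.0140 with limma-voom and -0.0143 with the replicate block, against 0.0457.

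Of 225 alternatives for 15 named genes, 210 kept their direction, as did 68 of 71 for the 7 ratios. No named gene passed the threshold. The ratio tests with a replicate block cannot reach the threshold with 4 pairs. Nor can those with 1 library left out, where the smallest exact permutation p is 0.0571. The p-values of both say nothing of stability. With 1 library left out, log2 fold changes ran from -0.161 to 0.0645 for Psma7, -0.0400 to 0.114 for Psmb6, -0.0826 to 0.0616 for Psmb7, -0.257 to 0.0264 for Psme1, -0.0158 to 0.217 for Psme4 and -0.153 to 0.202 for Psmf1. The log2 ratio difference of Psme4 to Psme1 ran from -0.0578 to 0.522 and that of Psme4 to Psme3 from -0.0394 to 0.0911; for Psme4 to Psme2 it ran from 0.110 to 0.699, for Psma8 to Psma7 from 0.0629 to 0.300 and for Psmb9 to Psmb6 from -0.771 to -0.0690. Counting error limits Psmb8 and Psmb9, with 7 to 43 counts per library.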

Other observations

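RefSeq promoter windows of 300 bases (250 before to 50 after each start, GRCm38.p6) were given for 38 of the 45 members, in 41 windows, and 32851 windows in all. Both strands were searched, and overlapping matches counted once per window. The core of the interferon-stimulated response element was in 9.76% of member windows and 3.44% of all windows; the members were Psmb3, Psmd4, Psmd9 and Psme1. TTCNNNGAA, the gamma-activated site, was in 4.88% of member windows (Psmb8 and Psmd2) and 8.30% of all. CCAAT was in 34.1% of member windows and 37.4% of all. TGACNNNGC, the core of the antioxidant response element that Nfe2l1 and Nfe2l2 bind, was in 14.6% of member windows (Psmb5, Psmb6, Psmc6, Psmd9, Psmd12 and Psme4) and 12.4% of all. These matches describe letters in a window and were not tested.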
